A study of Rattus norvegicus with 4 samples.

Results

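Mir322, Mir503, Mir351, Mir542 and Mir450a1 are 5 miRNA precursor genes that lie side by side on the rat X chromosome and form the miR-322 cluster. Its members were taken by gene symbol from the deposited read counts, with every arm that the counts name, which gave 10 mature arms from 5 genes out of 740 miRNA names from 452 genes. The cluster was selected on its measured levels, that is, on its ratios between the zones and between vesicles and cells in these libraries, so all these ratios are given as a description and not as a test. Small RNA had been sequenced from chondrocytes of the costochondral cartilage of male Sprague Dawley rats and from the matrix vesicles (MVs) that they leave in their matrix, with 1 library for each of 4 groups. RC-cells were resting zone chondrocytes, the less mature cells of the growth plate, and RC-MVs were the vesicles of such cultures. GC-cells and GC-MVs were the same pair from the growth zone, where chondrocytes mature and the matrix calcifies. No genetic change or drug treatment is given for any group, and all were cultured to confluence in passage 4, in medium with ascorbic acid and fetal bovine serum that had been centrifuged to remove bovine exosomes, and the vesicles were spun down from a trypsin digest of the cell layer. How many animals or cultures went into a library is not given in the sources used here.

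MicroRNAs are cut from hairpin precursors, and each hairpin can give a mature miRNA from its 5p arm and another from its 3p arm. The mature miRNA guides the Argonaute protein to messenger RNAs through its seed, the bases near its 5′ end, and lowers their translation or stability. miR-322, the rodent counterpart of human miR-424, and miR-503 are known to repress cell cycle genes such as cyclin D1 and Cdc25a and to be induced when muscle precursors leave the cell cycle, and miR-322 has been linked to MEK and ERK signalling in chondrocytes. miR-351 is a rodent miRNA with the seed of the miR-125 family, and miR-542-3p is known to repress survivin, a protein of cell division.

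The mature sequences of the cluster are shown because the seeds decide with which other miRNAs each arm shares targets, and because 2 neighbours proved hard to tell apart. They are RefSeq sequences on the minus strand of the GRCr8 assembly, where the 5 hairpins span chrX:137720933-137726241, a stretch of 5.31 kb. The reads themselves were aligned by the authors to the older Rnor_6.0 build. In the direction of transcription the order is Mir322, Mir503, Mir351, Mir542 and Mir450a1, and an annotated long non-coding RNA, LOC102550366, overlaps the first 3. The sequences run 5′ to 3′ with the seed (bases 2 to 8) in capitals.
miR-322-5p: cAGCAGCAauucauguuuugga
miR-322-3p: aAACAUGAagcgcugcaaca
miR-503-5p: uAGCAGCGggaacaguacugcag
miR-503-3p: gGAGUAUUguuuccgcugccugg
miR-351-5p: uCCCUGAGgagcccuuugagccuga
miR-351-3p: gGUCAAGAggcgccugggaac
miR-542-5p: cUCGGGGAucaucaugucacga
miR-542-3p: uGUGACAGauugauaacugaaa
miR-450a-5p: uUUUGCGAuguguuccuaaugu
miR-450a-3p: uAUUGGGAacauuuugcauaa

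No seed of bases 2 to 8 occurred in more than 1 of these 10 arms. miR-322-5p and miR-503-5p shared the first 6 bases of the seed and differed in the last. The counts name the arms of Mir542 and Mir450a1 as 5p and 3p, so that 4 of the 10 arms could be matched to a sequence by name. The arms of Mir322, Mir503 and Mir351 are named in the older way, with and without a star, and no table at hand pairs these names with the 5p and 3p sequences. They are therefore given below as miR-322 and miR-322*, miR-503 and miR-503*, and miR-351 and miR-351*, and results that need a sequence for them are stated for both pairings.

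A further hairpin, Mir450b-1, lies between Mir450a1 and Mir542 in GRCr8 and has 0 rows in the counts. Its 5p arm is shown because it is nearly the same molecule as miR-450a-5p.
miR-450a-5p: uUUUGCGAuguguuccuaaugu
miR-450b-5p: uUUUGCGAuguguuccuaaua
The first 20 bases of miR-450a-5p (22 bases) and miR-450b-5p (21 bases) were identical. Reads of both could therefore stand in the row of miR-450a-5p, and every value of miR-450a-5p below is uncertain in this respect. No such copy was found for the 3p arms, which differed from the first base on.

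The libraries held 6517329 miRNA reads in RC-cells, 7414467 in GC-cells, 1108821 in RC-MVs and 982543 in GC-MVs. Levels are percents of all miRNA reads of a library, and ratios are ratios of these percents. Reads were not divided by length, since all arms had 20 to 25 bases. Each group had 1 library, so there was no spread between replicates, no p-value was computed, and no difference has a replicate check within these libraries. The 95% intervals, Wilson for levels and exact Clopper-Pearson for ratios and other shares, cover counting error only, and PCR copies of a molecule were counted as separate reads. A count of 3 reads, taken as the limit that 0 reads allow, was 4.60e-05% in RC-cells, 4.05e-05% in GC-cells, 2.71e-04% in RC-MVs and 3.05e-04% in GC-MVs, so that the rare arms could be followed in the cells but hardly in the vesicles.

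Summed over its 10 arms, the cluster made up 0.337% of the miRNA reads in RC-cells (21978 reads, 95% interval 0.333% to 0.342%), 0.0982% in GC-cells (7279 reads, 0.0959% to 0.100%), 0.188% in RC-MVs (2085 reads, 0.180% to 0.196%) and 0.0311% in GC-MVs (306 reads, 0.0278% to 0.0348%). RC-cells came first in this order, followed by RC-MVs and GC-cells, with GC-MVs last, and no intervals of neighbours in it overlapped. Since whole cultures were extracted, fewer cells that make an arm cannot be told apart from less of it per cell. The resting zone was above the growth zone in cells and in vesicles, and in each zone the vesicles were below the cells.

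miR-450a-5p was the most abundant arm in both cell libraries. It had 10018 reads (0.154%) in RC-cells, 3610 (0.0487%) in GC-cells, 144 (0.0130%) in RC-MVs and 53 (0.00539%) in GC-MVs. It was ranked 50th of all miRNAs in RC-cells and 136th in RC-MVs. miR-351 had 5430 reads (0.0833%) in RC-cells, 1575 (0.0212%) in GC-cells, 1319 (0.119%) in RC-MVs and 108 (0.0110%) in GC-MVs. In both vesicle libraries miR-351 and not miR-450a-5p was the leading arm, and RC-MVs held its highest level of the 4 libraries, at rank 65. miR-542-3p had 2797 reads (0.0429%) in RC-cells, 1084 (0.0146%) in GC-cells, 397 (0.0358%) in RC-MVs and 83 (0.00845%) in GC-MVs. For miR-322*, 2341 reads (0.0359%) were found in RC-cells, 573 (0.00773%) in GC-cells, 147 (0.0133%) in RC-MVs and 41 (0.00417%) in GC-MVs. Unlike miR-351 and miR-542-3p, miR-322* was well below its level in cells in the vesicles of the resting zone.

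The other arms were rarer. miR-322 had 750 reads in RC-cells, 291 in GC-cells, 18 in RC-MVs and 13 in GC-MVs. miR-503 had 362, 82, 3 and 1 reads in the same order, and its star arm miR-503* had 140, 23, 21 and 2. Thus miR-503 exceeded its star arm in the cells but not in the vesicles. There were 94, 25, 3 and 0 reads of miR-450a-3p, 30, 12, 30 and 3 reads of miR-351*, and 16, 4, 3 and 2 reads of miR-542-5p. In GC-MVs, 5 of the 10 arms had 3 reads or fewer, and values of these arms there rest on too few reads for a level to be fixed.

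**Figure D1:**
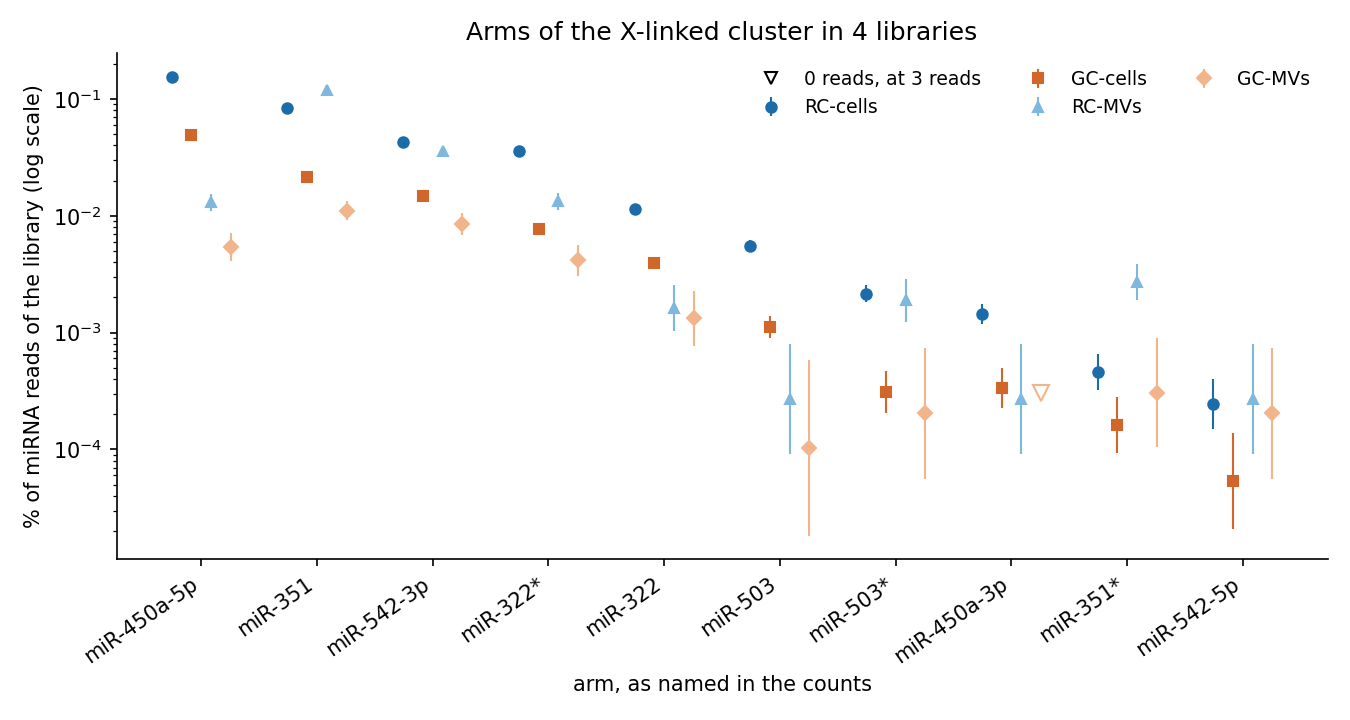
Percent of the miRNA reads of each library (vertical axis, log scale) for the 10 arms of the cluster, with 95% Wilson intervals for counting error, 1 library per point. The open triangle marks miR-450a-3p in GC-MVs, with 0 reads, drawn at the level of 3 reads. RC-cells (circles) lie above GC-cells (squares) for every arm, and miR-351 is the only arm above 0.01% in RC-cells whose level in RC-MVs (0.119%) exceeds that in the cells (0.0833%).

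The first comparison was that of the zones in the cells, which asks how the cluster differs with the maturation of the chondrocytes. All 10 arms were higher in RC-cells than in GC-cells by 2-fold or more. Of the 474 miRNAs read in both libraries, 13.7% were higher by that much and 5.7% lower by that much. Since the cluster was chosen by these ratios, nothing is read from setting its count beside these shares. The median log2 ratio was 2.03 over the arms and 0.24 over all miRNAs. The cluster as a whole was 3.44-fold higher in RC-cells (95% interval 3.34 to 3.53).

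Mir503 and Mir322 are precursors of miRNAs with cell cycle genes among their known targets. miR-503* was 6.92-fold higher in RC-cells (4.43 to 11.3) and miR-503 was 5.02-fold higher (3.94 to 6.46). miR-322* was 4.65-fold higher (4.24 to 5.10) and miR-322 was 2.93-fold higher (2.56 to 3.37). The intervals of the arms of Mir322 did not overlap, so that these arms of the same hairpin had unequal zone ratios beyond counting error. miR-351 was 3.92-fold higher in RC-cells (3.71 to 4.15), miR-450a-5p 3.16-fold (3.04 to 3.28) and miR-542-3p 2.94-fold (2.74 to 3.15). The rare arms were 4.28-fold higher for miR-450a-3p (2.73 to 6.94), 4.55-fold for miR-542-5p (1.47 to 18.7) and 2.84-fold for miR-351* (1.41 to 6.10). By precursor, the zone ratios ran from 2.94-fold for Mir542 and 3.16-fold for Mir450a1 through 3.91-fold for Mir351 and 4.07-fold for Mir322 to 5.44-fold for Mir503. The intervals of Mir351 and Mir322 overlapped, as did those of Mir542 and Mir450a1.

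The scale of the percents bears on these values, as a percent moves with the most abundant miRNAs of a library. With edgeR's TMM normalization every log2 ratio of RC-cells to GC-cells was shifted by -0.34, and of all miRNAs 34 then passed 2-fold upward and 51 downward, in place of 65 and 27. All 10 arms of the cluster still passed 2-fold upward under TMM normalization, under DESeq2's size factors and with a total that left out the abundant miR-143-3p, miR-21-5p and miR-22-3p, with single ratios from 2.22 to 5.56. These 3 scalings shifted the log2 ratios by -0.63 to -0.20 between the vesicles, by -0.21 to -0.04 between RC-MVs and their cells and by -0.22 to 0.10 between GC-MVs and theirs.

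The same comparison was made between the vesicles of the zones. Of the 9 arms with reads in both vesicle libraries, 7 were higher in RC-MVs by 2-fold or more and 0 were lower by that much. Of 397 miRNAs, 24.7% were higher and 14.6% lower by that much. The median log2 ratio was 1.67 over these arms and 0.15 over all miRNAs. With the total without the 3 abundant miRNAs 5 of 9 arms passed 2-fold upward, as miR-450a-5p was then at 1.56 and miR-503 at 1.72, while of the 397 miRNAs 40 passed it upward and 123 downward, in place of 98 and 58. Where both libraries had 10 or more reads, 4 of 5 arms passed it upward, as did 64 of 271 miRNAs, and 33 passed it downward. As in the cells, this contrast was among those that chose the cluster. The cluster as a whole was 6.04-fold higher in RC-MVs (95% interval 5.35 to 6.83), a larger ratio than in the cells, and 3.90-fold higher with the total without the 3 abundant miRNAs.

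The larger ratio in the vesicles lay in miR-351. Its level in RC-MVs was 10.8-fold that in GC-MVs (8.89 to 13.3), and no other miRNA with at least 10 reads in all 4 libraries had a higher ratio. Without miR-351, a sum chosen after the data were seen, the ratio of the cluster between the vesicles was 3.43, against 3.30 between the cells. miR-542-3p was 4.24-fold higher in RC-MVs (3.34 to 5.44), miR-322* 3.18-fold (2.23 to 4.61) and miR-450a-5p 2.41-fold (1.75 to 3.36). miR-322 had 18 reads against 13 and a ratio of 1.23 with an interval from 0.568 to 2.72, so that a difference between the vesicles was not detectable at this depth. Its direction also turned with the total without the 3 abundant miRNAs, to a ratio of 0.793.

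The rare arms had few reads in GC-MVs. miR-503*, with 21 reads against 2, had a ratio of 9.30 with an interval from 2.27 to 81.9. miR-351*, with 30 reads against 3, had a ratio of 8.86 with an interval from 2.76 to 45.4. For miR-503, with 3 reads against 1, and miR-542-5p, with 3 against 2, the intervals reached from 0.213 to 140 and from 0.152 to 15.9 and included 1. No fold was computed for miR-450a-3p, with 3 reads against 0.

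Set against the zone ratio in the cells, the zone ratio in the vesicles was 2.76 times as high for miR-351 (95% log-normal counting interval 2.25 to 3.38) and 1.44 times as high for miR-542-3p (1.13 to 1.85). It was 0.684 times as high for miR-322* (0.478 to 0.978), 0.418 times for miR-322 (0.202 to 0.865) and 0.763 times for miR-450a-5p (0.555 to 1.05). The interval of miR-450a-5p included 1 and those of the other 4 did not. Each of these 5 values kept its side of 1 under the other 3 scalings, but only miR-351 and miR-322 had intervals without 1 under all of them. The interval of miR-322* reached 1.07 with TMM normalization and 1.05 with size factors, and with the total without the 3 abundant miRNAs that of miR-542-3p began at 0.908 and that of miR-450a-5p ended at 0.843. Among these 5 arms, which had at least 10 reads in every library, miR-351 stood highest and miR-322 lowest, an order that does not depend on the scaling.

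**Figure D2:**
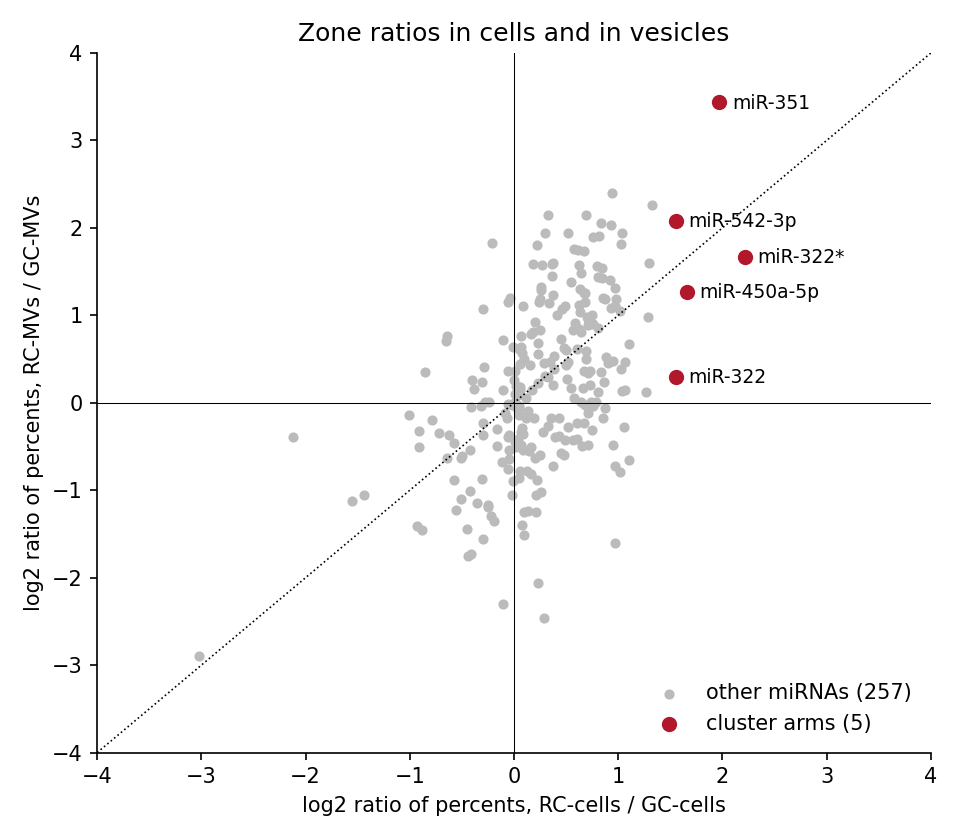
Log2 ratio of percents of RC-cells to GC-cells (horizontal axis) against that of RC-MVs to GC-MVs (vertical axis) for 262 miRNAs with at least 10 reads in every library, with 1 library per group. Points on the dotted line have the same ratio in both. The 5 arms of the cluster (red) lie between 1.55 and 2.22 in the cells, beyond the highest of the other 257 miRNAs (grey) at 1.33, and miR-351 lies above the line at 3.44 in the vesicles. Among all 474 miRNAs read in both cell libraries, these arms ranked from 9th (miR-322*) to 24th (miR-322) by their ratio in the cells. The cluster was chosen by these ratios, so nothing is read from its place apart from the others.

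A further question was how the cluster in vesicles compares with the cells that made them. In the resting zone, 1 of the 10 arms was higher in vesicles by 2-fold or more and 5 were lower by that much, while of 414 miRNAs 33.6% were higher and 30.4% lower. Where both libraries had 10 or more reads, 3 of 7 arms were lower by that much, as were 83 of 293 miRNAs. In the growth zone, 1 of 9 arms was higher in vesicles by 2-fold or more and 3 were lower, while of 417 miRNAs 32.1% were higher and 25.2% lower. The 1 arm that was higher was miR-542-5p, from 2 reads against 4, and the count of lower arms was 6 of 9 with TMM normalization and 5 with size factors, where 122 and 120 of the 417 miRNAs were lower, in place of 105. The median log2 ratio of vesicles to cells was -0.85 for the arms and 0.08 for all miRNAs in the resting zone, and -0.89 and 0.13 in the growth zone. The whole cluster was 1.79-fold lower in RC-MVs (1.71 to 1.88) and 3.15-fold lower in GC-MVs (2.81 to 3.55) than in the cells. These sums rest on single arms: without miR-450a-5p the ratio of vesicles to cells was 0.954 in place of 0.558 for the resting zone and 0.520 in place of 0.317 for the growth zone, and without miR-351 it was 0.272 and 0.262.

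miR-450a-5p, the leading arm of the cells, was 11.8-fold lower in their vesicles in the resting zone (10.0 to 14.1) and 9.03-fold lower in the growth zone (6.89 to 12.1). Its rare partner miR-450a-3p was 5.33-fold lower in RC-MVs, from 3 reads (1.77 to 26.3), and it had 25 reads in GC-cells against 0 in GC-MVs. The interval of the latter ratio reached 1.20, so that a lower level in GC-MVs was not detectable at this depth. Both arms of Mir450a1 were thus below their level in cells in the resting zone, and only miR-450a-5p could be shown to be so in the growth zone.

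miR-503 was 20.5-fold lower in RC-MVs, from 3 reads (lower limit 6.97), and 10.9-fold lower in GC-MVs, from 1 read (1.90 to 434). Its star arm miR-503* was 1.13-fold lower in RC-MVs with an interval from 0.714 to 1.89, and in GC-MVs its interval from 0.377 to 13.3 left the direction unknown. miR-322 was 7.09-fold lower in RC-MVs (4.45 to 12.0) and 2.97-fold lower in GC-MVs (1.71 to 5.64). Its star arm miR-322* was 2.71-fold lower in RC-MVs (2.29 to 3.22) and 1.85-fold lower in GC-MVs (1.35 to 2.61). In the resting zone, the intervals of both arms of a hairpin were apart for Mir322 and for Mir503.

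miR-542-3p was 1.20-fold lower in RC-MVs (1.08 to 1.33) and 1.73-fold lower in GC-MVs (1.38 to 2.19). miR-542-5p, with 2 to 16 reads in each library, had intervals that included 1 in both zones, and its direction in the resting zone turned with the total without the 3 abundant miRNAs. The star arm miR-351* was 5.88-fold higher in the vesicles of the resting zone (3.42 to 10.1), the only arm with an interval wholly above 2-fold and apart from that of miR-351, and its ratio in the growth zone was 1.89 with an interval from 0.342 to 6.99.

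miR-351 was the only arm whose ratio of vesicles to cells went in opposite directions in the zones with neither interval reaching 1. The vesicles were 1.43-fold above the cells in the resting zone (1.34 to 1.52) and 1.93-fold below them in the growth zone (1.59 to 2.37). Both values were within 2-fold. Under the other 3 scalings the ratio was 1.23 to 1.39 in the resting zone and 0.443 to 0.555 in the growth zone. The directions thus held, and how many miRNAs outside the cluster had such opposite directions was not counted.

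**Figure D3:**
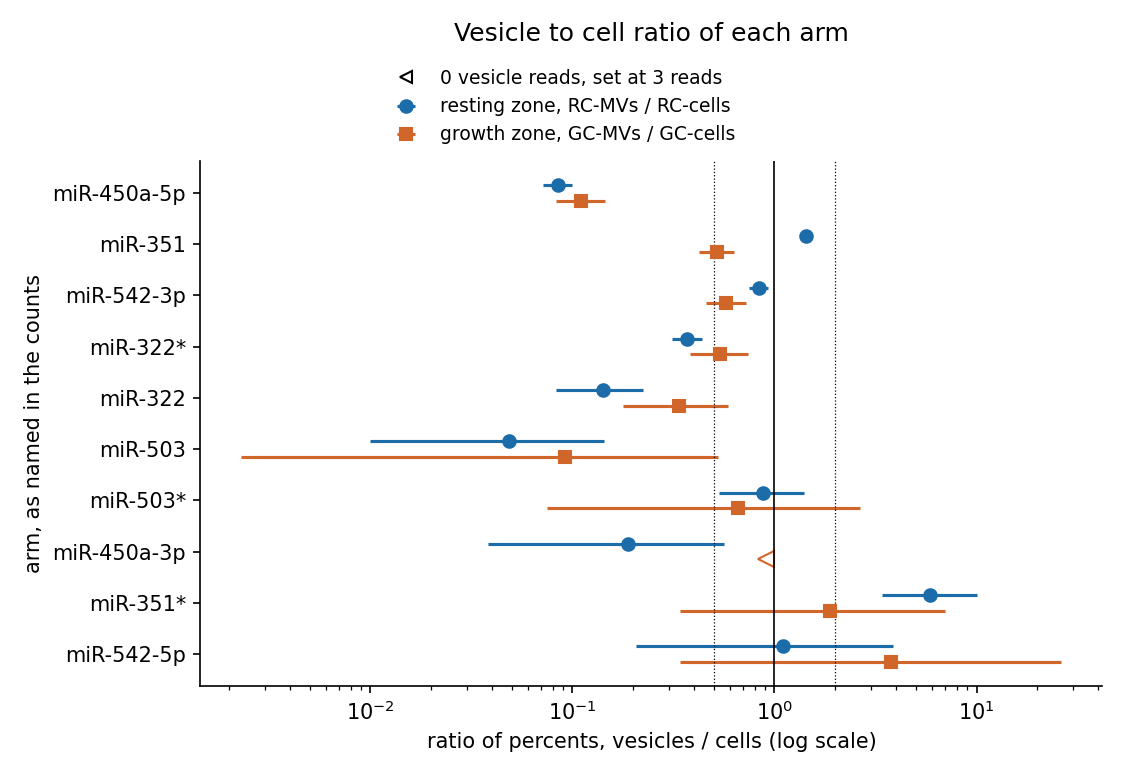
Ratio of percents of vesicles to cells (horizontal axis, log scale) for the 10 arms, in the resting zone (circles) and the growth zone (squares), with 95% exact counting intervals and 1 library per group. The solid line marks equal levels and the dotted lines 2-fold, and the open triangle is miR-450a-3p, with 0 reads in GC-MVs, drawn at 3 reads and without its interval. The ratios in the resting zone reach from 0.0487 for miR-503 to 5.88 for miR-351*.

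The make-up of the cluster within a library needs no scaling, since its arms are compared only with each other. Mir450a1 supplied 46.0% of the reads of the cluster in RC-cells (95% interval 45.3% to 46.7%) and 49.9% in GC-cells (48.8% to 51.1%), but 7.05% in RC-MVs (5.99% to 8.23%) and 17.3% in GC-MVs (13.3% to 22.0%). Mir351 supplied 24.8% in RC-cells (24.3% to 25.4%) and 21.8% in GC-cells (20.9% to 22.8%), but 64.7% in RC-MVs (62.6% to 66.8%) and 36.3% in GC-MVs (30.9% to 41.9%). The shares in the 2 cell libraries were close, though their intervals were apart, and the vesicle libraries differed far more from the cells and from each other.

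Mir542 supplied 12.8% in RC-cells, 14.9% in GC-cells, 19.2% in RC-MVs and 27.8% in GC-MVs. Mir322 supplied 14.1%, 11.9%, 7.91% and 17.6% in the same order. In GC-MVs the intervals of Mir322 (13.5% to 22.4%) and Mir450a1 overlapped, and those of Mir542 (22.8% to 33.2%) and Mir351 did so only between 30.9% and 33.2%. Mir503 was the smallest source in every library, at 2.28%, 1.44%, 1.15% and 0.980%, the last from 3 reads.

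For each read of miR-450a-5p there were 0.542 reads of miR-351 in RC-cells (0.524 to 0.560) and 0.436 in GC-cells (0.411 to 0.463), but 9.16 in RC-MVs (7.71 to 11.0) and 2.04 in GC-MVs (1.45 to 2.89). For each read of miR-542-3p there were 1.94 reads of miR-351 in RC-cells (1.85 to 2.03), 1.45 in GC-cells (1.34 to 1.57), 3.32 in RC-MVs (2.97 to 3.73) and 1.30 in GC-MVs (0.968 to 1.75). Relative to miR-542-3p, miR-351 was therefore higher in RC-MVs than in their cells, while in the growth zone the intervals of vesicles and cells overlapped.

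**Figure D4:**
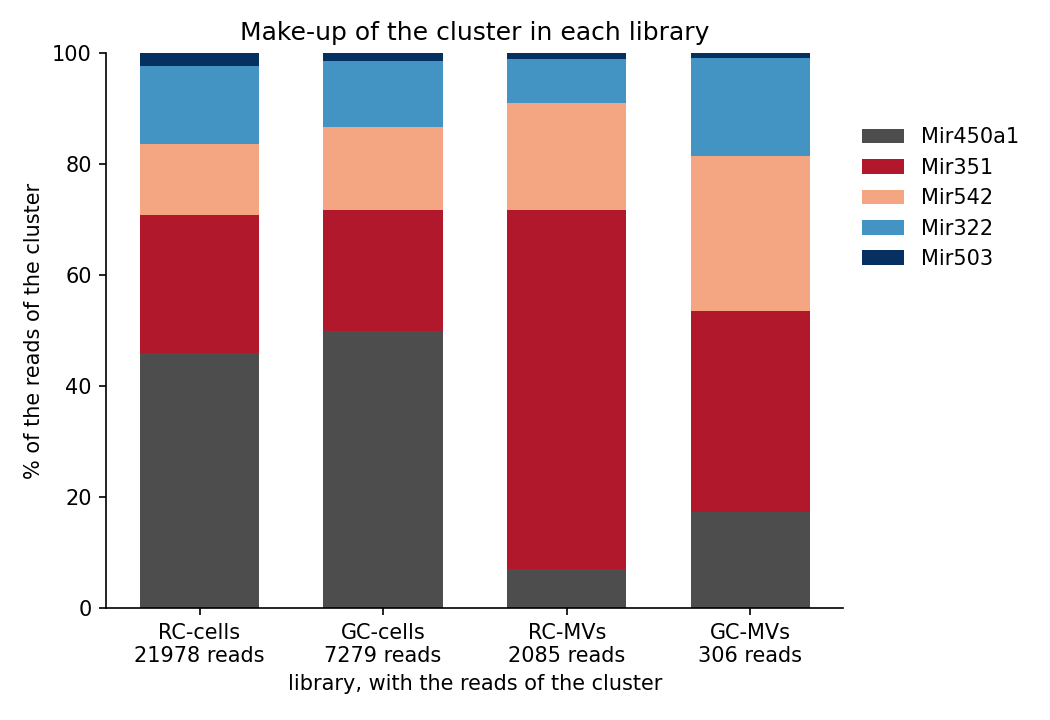
Share of the reads of the cluster that each of the 5 precursor genes supplied (vertical axis, percent, both arms added) in the 4 libraries, with the number of reads of the cluster under each bar and no error bars. Mir450a1 (grey, bottom) takes 46.0% and 49.9% in the cells but 7.05% and 17.3% in the vesicles, and Mir351 (red) takes 64.7% in RC-MVs.

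The arms also differ in base content. The 5p and 3p sequences held 36.4% and 28.6% G and C for Mir450a1, 31.8% for miR-542-3p, 54.5% for miR-542-5p, 40.9% and 45.0% for Mir322, 56.5% for each arm of Mir503, and 60.0% and 66.7% for Mir351. By precursor, the resting zone ratio of vesicles to cells was 0.0854 for Mir450a1, 0.281 for Mir503, 0.314 for Mir322, 0.836 for Mir542 and 1.45 for Mir351. The growth zone ratio was 0.110 for Mir450a1, 0.216 for Mir503, 0.472 for Mir322, 0.590 for Mir542 and 0.528 for Mir351, and the intervals of the last 3 overlapped. The interval of Mir503 in the growth zone, from 3 reads in GC-MVs, reached from 0.0438 to 0.648 and overlapped all the others. In the resting zone the intervals of Mir503 (0.178 to 0.423) and Mir322 (0.267 to 0.367) overlapped. The part of base content in these ratios was not tested.

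The balance of the arms of a hairpin is likewise free of the scaling. For Mir503, miR-503* made up 27.9% of the reads of both arms in RC-cells (24.0% to 32.0%) and 21.9% in GC-cells (14.4% to 31.0%), but 87.5% in RC-MVs (67.6% to 97.3%), where 21 of 24 reads were from the star arm. In GC-MVs, 2 of 3 reads were from it. The arm that was the lesser one in the cells was thus the greater one in RC-MVs, beyond counting error.

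For Mir322 the star arm was the more abundant one in every library. miR-322 made up 24.3% of both arms in RC-cells (22.8% to 25.8%), 33.7% in GC-cells (30.5% to 36.9%), 10.9% in RC-MVs (6.59% to 16.7%) and 24.1% in GC-MVs (13.5% to 37.6%). Its share was higher in GC-cells than in RC-cells and lower in RC-MVs than in their cells, both beyond counting error. For Mir351, miR-351* made up 0.549% in RC-cells (0.371% to 0.783%) and 2.22% in RC-MVs (1.51% to 3.16%). Its share in GC-cells, 0.756% (0.391% to 1.32%), and that in GC-MVs, 2.70% from 3 reads (0.561% to 7.70%), had overlapping intervals. The minor arms of Mir450a1 and Mir542 made up at most 2.35% in any library and their intervals in cells and vesicles of a zone overlapped.

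Because miRNAs with the same seed can bind the same sites, the reads of the cluster were set beside those of other miRNAs with the seeds of its arms. Of the 740 names, 660 could be matched to a mature sequence, and only 2 arms of the cluster had seed partners in the counts. miR-351-5p shared its seed with miR-125a-5p and miR-125b-5p, and the identity ran over the first 8 bases. miR-322-5p shared its seed with miR-15b-5p, miR-16-5p, miR-195-5p and miR-497-5p, a family known for holding back the cell cycle.
miR-351-5p: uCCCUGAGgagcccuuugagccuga
miR-125b-5p: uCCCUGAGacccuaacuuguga
miR-125a-5p: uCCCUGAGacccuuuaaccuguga
miR-322-5p: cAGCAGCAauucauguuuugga
miR-16-5p: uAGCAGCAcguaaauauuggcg
miR-15b-5p: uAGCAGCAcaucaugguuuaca

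If the row miR-351 holds the 5p arm, it supplied 5.12% of the reads with the miR-125 seed in RC-cells (4.99% to 5.25%), 1.76% in GC-cells (1.68% to 1.85%), 9.81% in RC-MVs (9.31% to 10.3%) and 2.88% in GC-MVs (2.37% to 3.47%). With the row miR-351* in its place, the share was at most 0.247%. miR-125b-5p, which is far more abundant, had 87547 reads in RC-cells, 76896 in GC-cells, 11399 in RC-MVs and 3334 in GC-MVs. It was 1.30-fold higher in RC-cells than in GC-cells (1.28 to 1.31) and 3.03-fold higher in RC-MVs than in GC-MVs (2.91 to 3.15). Its ratio of vesicles to cells was 1.31-fold lower in the resting zone (1.28 to 1.33) and 3.06-fold lower in the growth zone (2.95 to 3.17). So miR-125b-5p, too, had a larger zone ratio in the vesicles than in the cells, and the share of miR-351 in the reads with this seed was higher in each vesicle library than in the cells of its zone.

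If miR-322* holds the 5p arm, it supplied 35.2% of the reads with the seed of the miR-15 and miR-16 family in RC-cells (34.0% to 36.3%), 12.5% in GC-cells (11.5% to 13.5%), 61.8% in RC-MVs (55.3% to 68.0%) and 9.79% in GC-MVs (7.11% to 13.0%). If miR-322 holds it, the shares were 14.8% in RC-cells, 6.76% in GC-cells, 16.5% in RC-MVs and 3.32% in GC-MVs. With either pairing the share was higher in the resting zone than in the growth zone, in cells and in vesicles, and the intervals did not overlap. miR-16-5p held most of the other reads, with 3856 in RC-cells, 3582 in GC-cells, 74 in RC-MVs and 362 in GC-MVs. It was 1.22-fold higher in RC-cells than in GC-cells (1.17 to 1.28) and 5.52-fold lower in RC-MVs than in GC-MVs (4.29 to 7.19), opposite to the arms of the cluster in the vesicles. miR-16 is abundant in blood, and the miRNAs of blood were also higher in GC-MVs, as given below. Their part in these shares was not tested.

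To see which other miRNAs followed the cluster, the log2 percents of each of 257 other miRNAs with at least 10 reads in every library were centred over the 4 libraries and compared with those of the cluster sum. The 5 nearest by Euclidean distance were miR-125b-5p at 1.24, miR-543-3p at 1.29, miR-380-5p at 1.36, miR-331-3p at 1.41 and miR-409a-5p at 1.41, where the median distance was 2.81. None of them lies on the X chromosome. The arms of the cluster were at 0.729 for miR-322*, 0.824 for miR-542-3p, 1.20 for miR-351, 1.89 for miR-322 and 2.32 for miR-450a-5p, so that miR-322 and miR-450a-5p were farther from the sum of their own cluster than these 5 outsiders. The distances rest on 4 libraries and the cluster sum contains its arms.

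Other X-linked miRNAs are given for comparison, side by side and with no test. The Clcn5 intronic miRNAs (Mir532, Mir500, Mir501, Mir362, Mir188 and Mir660, of which 5 genes were in the counts) had a summed ratio of RC-cells to GC-cells of 0.974 (0.947 to 1.00) and of RC-MVs to GC-MVs of 0.829 (0.775 to 0.887). Mir221 and Mir222, a pair known to promote cell division, had 1.67 (1.65 to 1.69) and 1.10 (1.06 to 1.15). Of all 42 other X-linked miRNAs with reads in both cell libraries, 3 were higher in RC-cells by 2-fold or more and 3 lower by that much. Of the 31 with at least 10 reads in both, 0 were higher by that much and 1 lower. Of the 27 with reads in both vesicle libraries, 2 were higher in RC-MVs by that much and 5 lower.

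The labelled cell type and the cells that could be mixed with it were checked with lists of marker miRNAs. For cartilage, miR-140-3p had 24948 reads in RC-cells, 37484 in GC-cells, 10542 in RC-MVs and 7799 in GC-MVs, and the list of 6 summed to between 0.526% and 1.00% of the reads, with miR-675-5p at 0 in all libraries. The members did not move together. miR-140-5p, from the other arm of the same hairpin, was at 0.0710% in RC-cells, 0.0808% in GC-cells, 0.00848% in RC-MVs and 0.0216% in GC-MVs, so that it was lower in vesicles where miR-140-3p was higher. miR-455-5p was at 0.0627%, 0.0439%, 0.0236% and 0.0171% in the same order, higher in RC-cells than in GC-cells where miR-140-3p was lower. For skeletal muscle, where miR-322 and miR-503 are also active, the list of 7 summed to between 0.00325% in RC-MVs and 0.00994% in RC-cells. Nearly all of this sum in the cells was miR-499-5p, with 624 reads in RC-cells, 584 in GC-cells, 17 in RC-MVs and 19 in GC-MVs. The muscle miRNA miR-133a-3p had 0, 3, 6 and 28 reads and miR-206-3p had 18, 28, 12 and 29 reads in the same order, and miR-208a-3p was at 0 in all libraries. Thus miR-499-5p was lower in the vesicles and miR-133a-3p higher. The blood list, with 9 of 10 names in the counts, summed to 0.0278% in RC-cells, 0.0236% in GC-cells, 0.104% in RC-MVs and 0.254% in GC-MVs. In the cells most of this sum was miR-126a-3p, with 1614 of 1813 reads in RC-cells and 1565 of 1748 in GC-cells, and miR-223-3p was at 0 in GC-cells. The liver and serum list of 3 summed to 0.0284%, 0.0393%, 0.418% and 1.18% in the same order. Its largest member was miR-122-5p in both vesicle libraries but miR-192-5p in both cell libraries. There miR-192-5p stood at 0.0238% for the resting zone and 0.0338% for the growth zone. Both sums were higher in vesicles than in cells and highest in GC-MVs, where the cluster was lowest. The sum of the liver and serum list in the vesicles was nearly all miR-122-5p, which had 4447 reads in RC-MVs but 11225 in GC-MVs, while miR-192-5p and miR-194-5p were lower in RC-MVs than in their cells, as was miR-126a-3p of the blood list. The serum of the medium had been centrifuged to remove bovine exosomes, as given above, and serum called exosome-free was also added to stop the trypsin digest. Whether miRNAs of the serum remained was not tested. The part of these lists in the ratios of the cluster in the vesicles was not tested.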

How the data were processed

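Small RNA was sequenced by the authors on an Illumina HiSeq and aligned with Bowtie2 to Rnor_6.0. The deposited values are raw read counts for every annotated miRNA locus, which the authors tabulated in miARma-Seq. The sources used here give neither tool versions nor trimming, nor how reads with several matching loci were counted, so arms with near-identical copies are uncertain. Counts of 774 loci were added by mature name, giving 740 names, and each member arm had 1 locus.

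Counts were divided by all miRNA reads of the library (982543 to 7414467). A miRNA with at least 1 read in both libraries was called at 2-fold. Intervals and calls were first tried on simulated counts. Those counts were drawn with counting error alone, so that the trial does not cover PCR copies or spread between replicates. Alternatives were edgeR's TMM, DESeq2's size factors, a total without 3 abundant miRNAs, at least 10 reads, a 4-fold threshold, the whole interval beyond 2-fold, a pseudocount of 0.5, thinning in 100 draws and sums without an arm. Named were all member arms, their seed partners, the 5 nearest patterns and, as sums, marker lists and other X-linked sets. Members and lists were chosen with earlier results of these data known. Sequences and gene symbols came from RefSeq tables of GRCr8, which held 438 of 452 genes. The study's PCR array, which also measured some of these miRNAs, and its RT-qPCR were not used here. Python 3.11.15, numpy 2.4.6, pandas 2.3.3, scipy 1.17.1, matplotlib 3.10.9, R 4.3.3, edgeR 4.0.16 and DESeq2 1.42.0 were used.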

Additional observations from a re-analysis of the deposited data

Results flagged for a closer look

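The ratio of vesicles to cells of miR-351 went one way in the resting zone and the other way in the growth zone. The ratio was 1.43 for the resting zone but 0.517 for the growth zone, and neither counting interval reached 1. With 1 library per group, the difference between the zones was not tested against the spread of replicates. A zone ratio that differs between vesicles and cells was not peculiar to miR-351. For miR-193a-5p, outside the cluster, the log2 zone ratio was -0.212 in the cells and 1.83 in the vesicles. That gap was wider than the one of miR-351, from 1.97 to 3.44.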

How the results depend on the processing

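No paired analysis was possible because each group had 1 library and the ratios came from no replicated test. The depth of the vesicle libraries, above all of GC-MVs with 306 reads of the cluster, limits the ratios of the rare arms.

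The ratio of the cluster between RC-cells and GC-cells, 3.44 with percents, was 2.72 with TMM normalization, 2.68 with size factors, 2.76 with the total without 3 abundant miRNAs, 3.71 without miR-450a-5p and 3.30 without miR-351. Between RC-MVs and GC-MVs, 6.04 with percents, it was 5.25, 5.08 and 3.90 under these scalings and 3.43 without miR-351. For RC-MVs against RC-cells, 0.558 with percents, it was 0.524 with TMM normalization, 0.482 with the total without 3 abundant miRNAs, 0.954 without miR-450a-5p and 0.272 without miR-351. For GC-MVs against GC-cells, 0.317 with percents, it was 0.272 with TMM normalization, 0.520 without miR-450a-5p and 0.262 without miR-351. The sums without miR-351 were chosen after seeing the data. Thinning and the pseudocount left all 4 ratios within their counting intervals. Thinning keeps the expected percents, and a pseudocount of 0.5 is small beside these sums. Neither could therefore have moved the ratios far, and nothing about depth is read from them. No ratio of the cluster changed its direction.

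Arms at least 2-fold higher in RC-cells than in GC-cells numbered 10, beside 65 of all 474 miRNAs, and 5 at 4-fold, where 13 of the 474 passed. Arms higher in RC-MVs than in GC-MVs numbered 7 of 9, beside 98 of 397 miRNAs. With at least 10 reads they numbered 4 of 5, beside 64 of 271 miRNAs, and at 4-fold 4 of 9, where 19 of 397 miRNAs passed. Arms lower in vesicles than in cells of the resting zone numbered 5 of 10, beside 126 of 414 miRNAs, and 3 of 7 with at least 10 reads, beside 83 of 293. Arms lower in GC-MVs than in GC-cells numbered 3, beside 105 of 417 miRNAs. They numbered 6 with TMM normalization and 5 with size factors, beside 122 and 120 miRNAs, and 1 with the whole interval beyond 2-fold, where 63 of 417 miRNAs passed. The 1 arm higher in GC-MVs, miR-542-5p with 2 reads against 4, became 2 arms with the total without 3 abundant miRNAs and 0 with at least 10 reads, at 4-fold or with the whole interval. Among all miRNAs, 134 of 417 were higher in GC-MVs, 147 with that total and 83 of 275 with at least 10 reads. At 4-fold 61 of 417 were higher, and 71 of 417 with the whole interval.

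Over all miRNAs, those higher in RC-cells than in GC-cells numbered 65, and 34 with TMM normalization, 32 with size factors, 35 with the total without 3 abundant miRNAs and 40 with at least 10 reads, while those lower numbered 27, and 51, 53, 51 and 10 in the same order. Between RC-MVs and GC-MVs, 98 were higher and 58 lower, which became 40 and 123 with the total without 3 abundant miRNAs and 64 and 33 with at least 10 reads. With at least 10 reads, those lower in RC-MVs against their cells went from 126 to 83, and in GC-MVs against GC-cells those higher went from 134 to 83 and those lower from 105 to 61, as fewer miRNAs were tested.

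With a seed of bases 2 to 7, which adds miR-503 (taken as its 5p arm) to miR-322*, the share in the miR-15 and miR-16 family was 38.5% in place of 35.2% in RC-cells and 14.0% in place of 12.5% in GC-cells. With miR-503* as the 5p arm these shares were 36.5% and 12.9%, and with miR-322 in place of miR-322* they were 20.5% and 8.50% beside miR-503 and 17.1% and 7.25% beside miR-503*. In RC-MVs, miR-322 beside miR-503* reached 30% (22.3% to 38.7%), in place of 16.5% for miR-322 at bases 2 to 8. Beside miR-503 it was at 18.8% there, and miR-322* was at 62.2% beside miR-503 and 64.9% beside miR-503*. In GC-MVs the pairings ranged from 3.57% to 10.2%. Of 114 ratios of single arms under other scalings, 91 stayed within their counting interval, and 3, of miR-322 and miR-542-5p with few reads, changed direction.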
